A study of Mus musculus with 14 samples.

Results

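Heat shock proteins and the DNAJ co-chaperones that work with them were followed in hearts of male wild-type C57BL/6 mice at 68 weeks and at 12 weeks of age. The genes were chosen by name: all genes of the count table whose symbol is Hspa, Hspb, Hspd, Hspe, Hsph, Dnaja, Dnajb or Dnajc with a number, or Hsp90aa1, Hsp90ab1 or Hsp90b1, with pseudogene symbols left out. This gave 72 of 49315 genes, and the name rule uses no measured value. They comprise 11 HSP70 genes, 3 HSP110 genes, 3 HSP90 genes, 8 small heat shock protein genes, the 2 mitochondrial chaperonin genes, and 45 J-protein genes, of which 4 are DNAJA, 13 DNAJB and 28 DNAJC. By the place where the protein is known to work, 39 belong to the cytosol and nucleus, 14 to the endoplasmic reticulum (ER), 9 to mitochondria, 5 to vesicles, endosomes or the Golgi, 2 to cilia and 3 to none of these.

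The mice of both ages were kept on standard chow, and total RNA was taken from about 10 mg of powdered heart for 4 RNA-seq libraries at 68 weeks and 4 at 12 weeks. The series also holds CUT&RUN data for H3K27me3, a histone mark of Polycomb-silenced genes, with 2 libraries and 1 input at each age. The title of the series concerns glutamine, cardiac ageing and that mark. Whether each library is a different mouse is not stated in the labels, so errors and p-values here reflect library-to-library spread, which may be technical. The labels also give no time of day for the sampling.

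Hsp70 proteins bind stretches of unfolded protein in cycles of ATP binding and hydrolysis. J-proteins deliver the client and start hydrolysis, and Hsp110 and BAG proteins release ADP so that the cycle can restart. Hsp90 acts later on partly folded clients such as kinases and steroid receptors, small heat shock proteins hold unfolded protein without ATP, and Hsp60 with its lid Hsp10 encloses proteins inside mitochondria. In the heart, small heat shock proteins, Dnajb6 and the Hspb8 and Bag3 pair are known for their work on sarcomere proteins. Heat shock factor 1 (HSF1) drives the inducible cytosolic genes by binding heat shock elements, repeats of GAA in alternating direction, whereas ATF6 and related factors drive ER chaperones through the ER stress response element.

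The promoters of 6 genes are shown before the values as examples of these elements. Of the 72 genes, 58 matched the RefSeq promoter table (GRCm38.p6), which holds the 250 bases before and 50 after each start. Each sequence below is the 250 bases before the start, 5′ to 3′ on the strand of the gene. Capitals mark the 2-unit heat shock element (GAANNTTC or TTCNNGAA, each its own reverse complement) in the first 4 promoters, and the ER stress response element (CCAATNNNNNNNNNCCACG, either strand) in the last 2. Hspa1a (chr17:34972157-34972406, minus strand) and Hspa1b (chr17:34959239-34959488, minus strand) are the stress-inducible Hsp70 genes. Hspd1 (chr1:55087933-55088182, minus strand) encodes Hsp60, and Dnaja1 (chr4:40722218-40722467, plus strand) is a J-protein of the cytosol. Hspa5 (chr2:34771840-34772089, plus strand) encodes BiP, the Hsp70 of the ER, and Hsp90b1 (chr10:86705445-86705694, minus strand) encodes Grp94, the Hsp90 of the ER.
Hspa1a: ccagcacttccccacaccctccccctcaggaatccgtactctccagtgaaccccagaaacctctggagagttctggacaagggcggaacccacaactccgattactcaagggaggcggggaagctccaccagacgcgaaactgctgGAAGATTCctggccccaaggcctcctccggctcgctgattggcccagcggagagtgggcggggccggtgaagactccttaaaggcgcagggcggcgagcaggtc
Hspa1b: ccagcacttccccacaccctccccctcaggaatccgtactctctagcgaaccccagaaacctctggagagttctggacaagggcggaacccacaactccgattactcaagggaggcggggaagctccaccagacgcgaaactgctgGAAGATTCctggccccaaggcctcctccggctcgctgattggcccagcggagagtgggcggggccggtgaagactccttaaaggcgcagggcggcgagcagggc
Hspd1: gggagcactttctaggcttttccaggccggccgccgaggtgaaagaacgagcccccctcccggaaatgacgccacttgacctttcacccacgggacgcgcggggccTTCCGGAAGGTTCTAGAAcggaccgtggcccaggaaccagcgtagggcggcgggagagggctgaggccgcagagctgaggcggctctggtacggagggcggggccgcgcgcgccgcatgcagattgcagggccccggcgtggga
Dnaja1: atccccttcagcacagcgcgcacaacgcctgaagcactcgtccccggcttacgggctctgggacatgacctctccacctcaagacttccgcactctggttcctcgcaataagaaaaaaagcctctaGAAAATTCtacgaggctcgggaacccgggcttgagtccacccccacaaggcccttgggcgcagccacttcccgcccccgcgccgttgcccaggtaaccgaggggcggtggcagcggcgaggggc
Hspa5: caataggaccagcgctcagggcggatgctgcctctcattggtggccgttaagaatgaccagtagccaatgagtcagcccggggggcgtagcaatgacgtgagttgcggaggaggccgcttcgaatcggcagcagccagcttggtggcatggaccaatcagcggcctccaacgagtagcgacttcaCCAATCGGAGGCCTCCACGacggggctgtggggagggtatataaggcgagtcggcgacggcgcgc
Hsp90b1: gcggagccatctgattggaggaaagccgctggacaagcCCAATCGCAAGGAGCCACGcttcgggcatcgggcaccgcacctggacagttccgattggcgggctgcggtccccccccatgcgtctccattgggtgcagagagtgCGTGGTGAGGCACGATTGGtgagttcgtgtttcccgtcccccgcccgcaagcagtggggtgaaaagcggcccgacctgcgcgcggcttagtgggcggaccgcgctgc

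The promoters of Hspa1a and Hspa1b differed at 3 of 250 bases and carried their element at the same place, 104 to 97 bases before the start. In Hspd1, 3 overlapping 2-unit matches formed a run 144 to 127 bases before the start, and this run lies between the listed starts of Hspd1 and of Hspe1, the gene of the Hsp10 lid, whose windows share 285 of 300 bases on opposite strands. The element of Dnaja1 lay 124 to 117 bases before 1 of its 3 listed starts. Hspa5 carried the ER stress response element 65 to 47 bases before the start, and Hsp90b1 carried it at 2 places, the farther one beginning 212 bases before the start.

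Over the whole 300-base windows, the 2-unit heat shock element was found for 16 of the 58 matched genes (27.6%), beside 17% of the 27025 genes in the table. The 3-unit form (GAANNTTCNNGAA, either strand, which always contains the 2-unit form) was found for 4 of 58 (6.9%), Hspd1, Hspe1, Dnajb6 and Hsph1, beside 0.662% of all genes. Hspd1 and Hspe1 hold the same run, read on opposite strands, and are counted separately here. The ER stress response element was found for 3 of 58 (5.17%), Hspa5, Hsp90b1 and Dnajc3, beside 0.137% of all genes. Hspa8, Hsp90aa1, Hsp90ab1 and Hspa9 were among the 14 genes not matched. A match describes the letters in this window and says nothing of binding in these hearts.

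RNA of other cell types differed between the libraries. Summed markers of airway and lung epithelium, 25 genes in 3 lists, stood at 32.2, 20.0, 1116 and 28.0 CPM (counts scaled to a fixed library total) in 68-week replicates 1 to 4, against 1896, 1012, 606 and 69.3 CPM in 12-week replicates 1 to 4. Thus 1 library at 68 weeks and 3 at 12 weeks were rich in airway RNA, although the labelled tissue is heart. Of the 25, 8 secretory, 11 ciliated and 4 alveolar markers were tested, all with negative log2 fold changes and 0 called, and the ciliated factor Foxj1 was at 0 in 68-week replicates 1 and 4. Summed adipocyte markers were 328 to 584 CPM at 68 weeks and 726 to 1357 CPM at 12 weeks. Of the 12, 6 were lower at 68 weeks by edgeR (adjusted p under 0.05), beside 1.22% of all genes tested. By the same test 3 of 5 tested markers of B and T cells were lower (summed level 1.59 to 2.94 CPM at 68 weeks and 3.48 to 8.35 CPM at 12 weeks), as were 1 of 6 of macrophages and neutrophils (101 to 110.2 CPM at 68 weeks and 117 to 139 CPM at 12 weeks) and 1 of 7 of fibroblasts (806 to 1064 CPM at 68 weeks and 1127 to 1418 CPM at 12 weeks). On the positive side were 1 adipocyte marker (log2 fold change 0.85) and 1 of B and T cells (0.46). So were 2 of fibroblasts, 1 of them at an unadjusted p under 0.05 by edgeR. Of 6 endothelial markers 0 were called, with all 6 on the negative side and summed levels of 829 to 1036 CPM at 68 weeks and 987 to 1420.5 CPM at 12 weeks. Summed cardiomyocyte markers, which define the labelled tissue, were high in all 8 libraries, at 58193 to 62246 CPM at 68 weeks and 51538 to 58805 CPM at 12 weeks. Mitochondrial transcripts took 10.1% to 12.1% of counts at 68 weeks and 7.41% to 11.5% at 12 weeks. The libraries held 28842059 to 34599121 counts at 68 weeks and 23599296 to 31662601 at 12 weeks.

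The chaperone RNA of these hearts was dominated by a few genes. Levels of different genes are compared as TPM, which divides counts by gene length and sets each library to the same sum, computed from the counts and the gene lengths in the files, as means over the 8 libraries. Hspb7, the cardiac small heat shock protein, led with 1631 TPM, and Hsp90ab1, the constitutive cytosolic Hsp90, followed with 1133 TPM. Another 14 genes lay between 100 and 1000 TPM, 36 between 10 and 100, 11 between 1 and 10, and 9 under 1.

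By family, the 8 small heat shock protein genes made up 39.5% of the summed chaperone TPM of 8316. HSP70 made up 18.4%, HSP90 17.9%, DNAJC 8.26%, the chaperonins 6.47%, DNAJA 4.03%, DNAJB 3.54% and HSP110 1.91%. The HSP70 share rested on the constitutive forms of 3 compartments. Hspa8, the cytosolic Hsc70, averaged 577 TPM, Hspa9, the mitochondrial mortalin, 450.4 TPM, and Hspa5 399 TPM, whereas the inducible Hspa1a and Hspa1b averaged 12.5 and 15.2 TPM. Among J-proteins, Dnajc15, of the mitochondrial inner membrane, was highest at 214 TPM, ahead of Dnaja2 at 170.3 TPM. In DNAJB the highest was Dnajb9, an ER lumen J-protein, at 54.8 TPM.

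**Figure D1:**
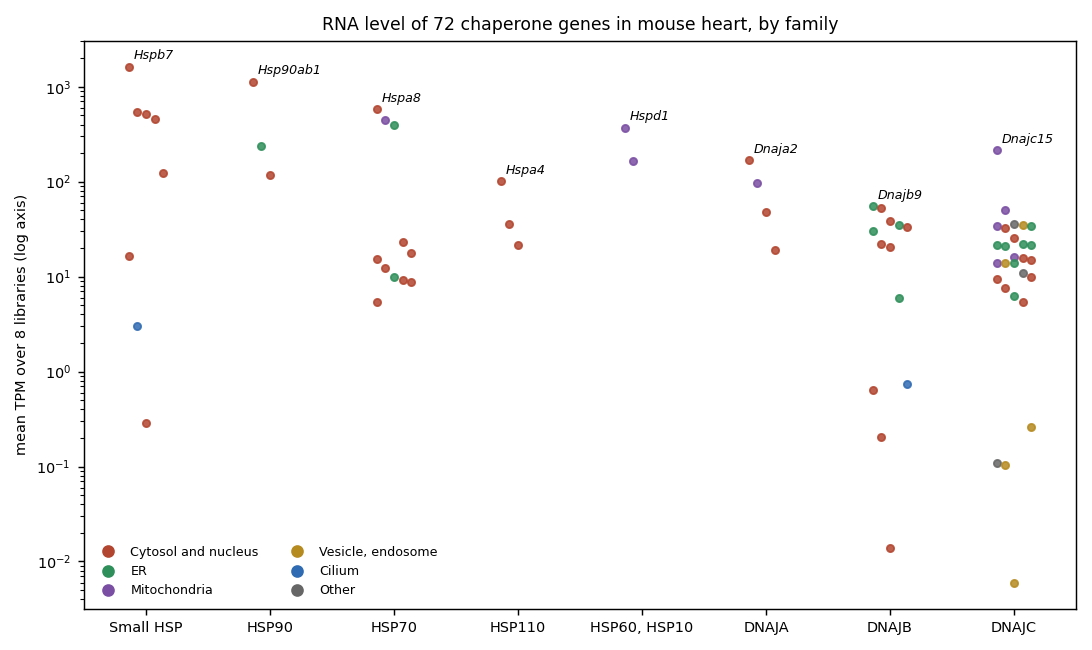
Mean TPM over 8 heart libraries (log axis) of each of the 72 genes, by family, with 1 point per gene coloured by compartment and the highest gene of each family named. Small heat shock proteins reach 1631 TPM (Hspb7), and the DNAJB and DNAJC families hold most of the genes under 1 TPM.

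The sum over all 72 genes was 8526 ± 687 TPM at 68 weeks and 8106 ± 579.9 TPM at 12 weeks (SD, n = 4 each), a difference smaller than either SD. Small heat shock proteins summed to 3527 ± 419 TPM at 68 weeks, in all 4 libraries above the 3039 ± 62.5 TPM at 12 weeks. The lowest 68-week library (3126 TPM) stood just above the highest 12-week library (3098 TPM). ER members summed to 835 ± 48.7 TPM at 68 weeks and 996 ± 315 TPM at 12 weeks, and the 12-week spread came from 1434 TPM in replicate 1.

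The age comparison asked which of these genes differ between aged and young hearts. Of the 72, 65 passed the filter on low counts and were tested with edgeR's quasi-likelihood test, with Benjamini-Hochberg adjustment over 15947 genes. None of the 65 passed an adjusted p of 0.05 in either direction, beside 1.61% of all genes tested that were higher at 68 weeks and 1.22% that were lower. At an unadjusted p under 0.05, 15 members (23.1%) were higher at 68 weeks and 0 lower, beside 9.26% higher and 9.77% lower over all genes tested. DESeq2 called 5 members higher at an adjusted p of 0.05 (Dnaja1, Hspa8, Hspb6, Hspb7 and Dnajc16) and 0 lower. Beside them stood 3.46% and 2.68% of the 16294 genes to which it gave an adjusted p.

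The members leaned to one side. Their log2 fold change, 68 minus 12 weeks, was positive for 53 of 65 (81.5%), with a median of 0.08, beside 47.9% positive and a median of −0.01 over all genes tested. The lean was not particular to the members. Positive were also 12 of 14 tested subunits of the folding complexes TRiC and prefoldin (median 0.08), 11 of 14 Hsp70 cofactors (0.06) and 8 of 10 cardiomyocyte markers (0.09). Other lists lacked it, with 10 of 19 Hsp90 co-chaperones (median 0.0006) and 6 of 18 ER stress genes (−0.03) positive. For 7 members (10.8%) all 4 libraries at 68 weeks were higher than all 4 at 12 weeks, and for 0 lower, beside 6.26% and 5.86% of all genes. Those 7 were Dnaja1, Hspa8, Hspb6, Hspb7, Dnajc13, Dnajc16 and Dnajc25. The median was 0.13 for 35 tested genes of the cytosol and nucleus (33 positive, 11 with an unadjusted p under 0.05), 0.02 for 14 of the ER (9 positive, 3 with such a p) and 0.02 for 9 of mitochondria (7 positive, 0 with such a p). By family it was 0.24 for small heat shock proteins, 0.14 for DNAJA and for HSP110, 0.08 for HSP70 and for HSP90, 0.06 for DNAJB, 0.04 for the chaperonins and 0.02 for DNAJC. Scaled by library size alone, which moved the median of all genes to −0.07, the medians of the ER genes and of DNAJC were both −0.04, that of mitochondria was −0.03 and that of the chaperonins −0.02. These medians describe the groups, and no test of a group or of a difference between groups was made.

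**Figure D2:**
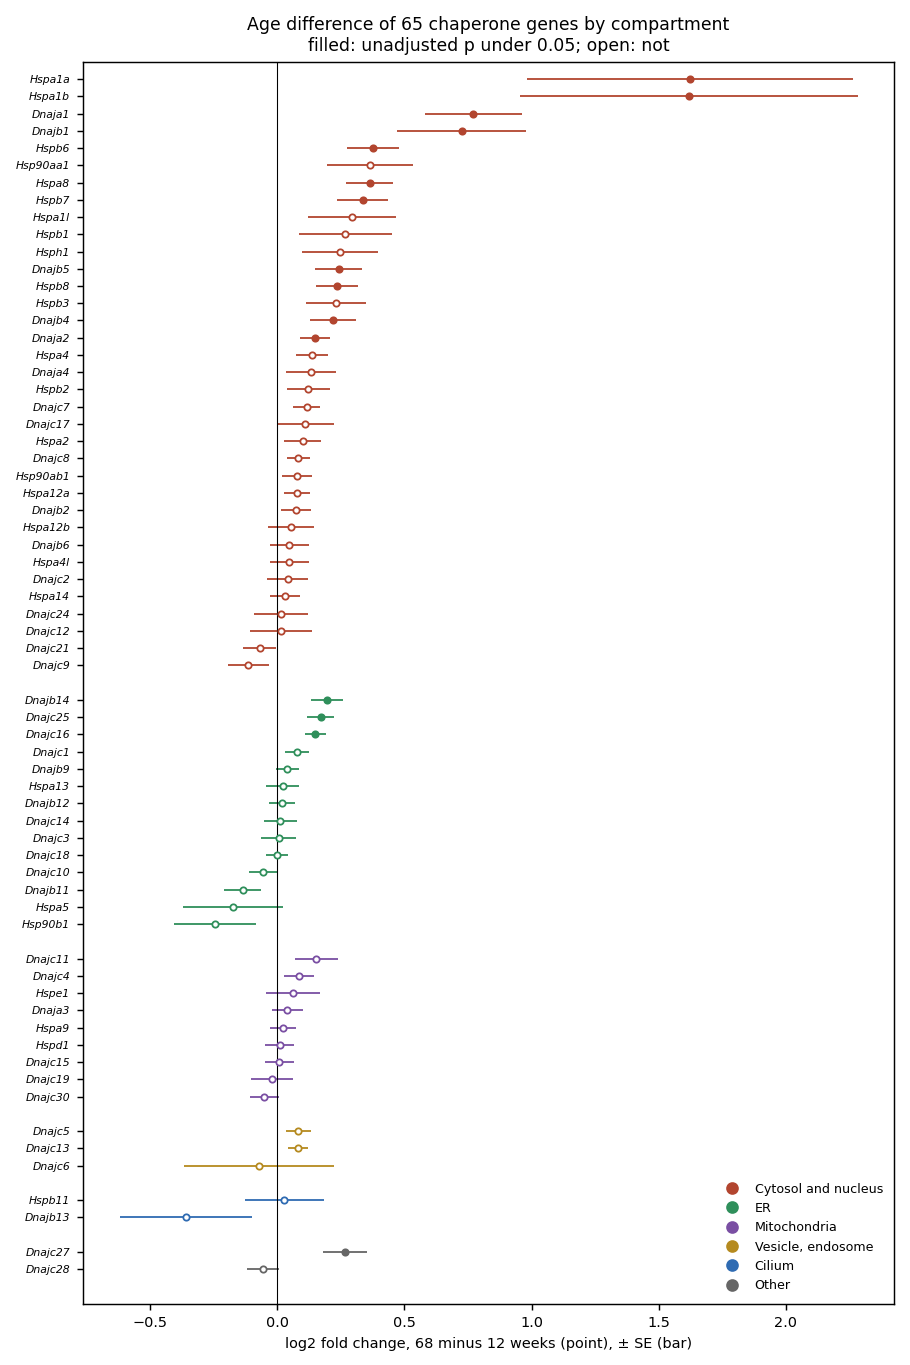
Log2 fold change of each of the 65 tested genes, 68 minus 12 weeks (point), with its approximate SE (bar), ordered within compartment, with filled points for an unadjusted p under 0.05. The cytosolic block lies mostly right of 0, led by Hspa1a and Hspa1b at 1.62, while the ER and mitochondrial blocks lie around 0.

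Single libraries weighed on the counts at an unadjusted p under 0.05, which can also fall because fewer libraries are used. With 1 library left out, the median of the members ran from 0.059 (without 12-week replicate 1) to 0.091 (without 68-week replicate 3). Replicate 4 at 68 weeks was the highest of the 8 libraries for 27 of the 65 genes, including 20 of 35 in the cytosol and nucleus, and replicate 1 at 12 weeks, the library with the most airway RNA, was the lowest for 28. Such ranks were not counted over all genes tested. Without both libraries, a setting added after the values had been seen, 6 members (9.23%), all among the 15, were higher at an unadjusted p under 0.05, beside 6.67% of all genes. With the airway sum as a term in the model there were 7 (10.8%, beside 6.06% of all genes), 6 of them among the 15. Within the 4 libraries low in airway markers (3 at 68 weeks, 1 at 12) there were 3 of 66 tested (4.55%, beside 4.56% of all genes), Dnajc11, Hspa12b and Hspa5, and 0 of the 15 had such a p. Within the 4 high ones (1 at 68 weeks, 3 at 12) there were 5 of 66 (7.58%, beside 3.43%), 4 of them among the 15. The median log2 fold change of the members, 0.08 over the 8 libraries, was 0.04 without 68-week replicate 4 and 12-week replicate 1. It was 0.06 with the airway sum in the model, 0.09 within the 4 low libraries and 0.08 within the 4 high ones. The median of all genes was −0.01 to 0.003 in these fits. In RNA of whole tissue, fewer cells of a type and less RNA per cell cannot be told apart. The part of RNA from airway, fat, immune cells, fibroblasts and vessels in the lean was not tested beyond these fits.

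**Figure D3:**
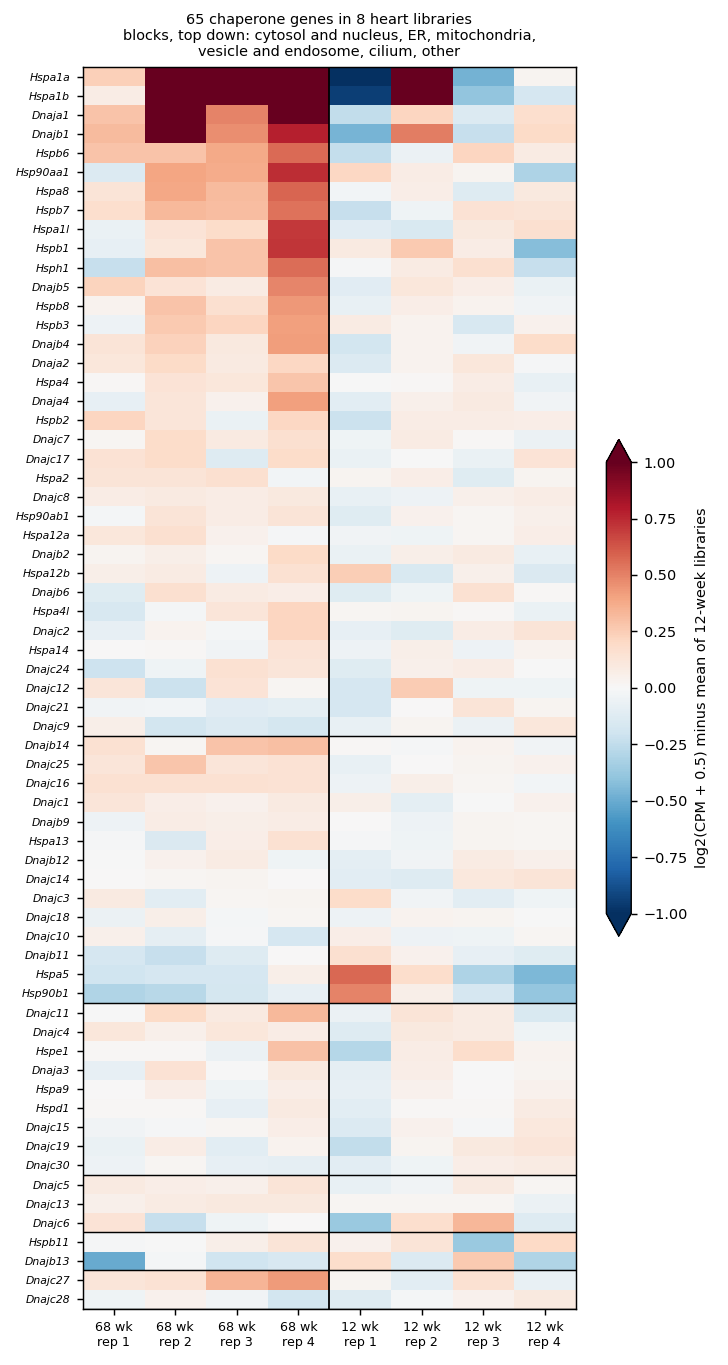
Log2(CPM + 0.5) of each of the 65 genes in each library, minus the mean of its 12-week libraries, with 68-week replicates 1 to 4 left and 12-week replicates 1 to 4 right, and colours capped at 1 in either direction. The top rows (Hspa1a, Hspa1b, Dnaja1, Dnajb1) are dark red in 68-week replicates 2 and 4. For Hspa1a and Hspa1b, 68-week replicate 3 and 12-week replicate 2 are also dark red, and 12-week replicate 1 is dark blue. Hspa5 and Hsp90b1 are red in 12-week replicate 1.

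The inducible Hsp70 genes had the largest log2 fold changes of the members and also the largest spread. Levels of 1 gene across libraries are given as CPM of the TMM-scaled library size. Hspa1a (ENSMUSG00000091971, chr17:34969190-34972156, mm10 by label) had 7.72, 47.2, 14.5 and 30.8 CPM at 68 weeks (replicates 1 to 4, as in all such lists), against 2.98, 18.5, 4.52 and 6.57 CPM at 12 weeks. Its neighbour Hspa1b, 9951 bases away on the same strand, stood at 7.81, 53.1, 16.3 and 38.1 CPM at 68 weeks, against 3.62, 21.9, 5.51 and 6.53 CPM at 12 weeks. In both genes the ages overlapped, because replicate 2 at 12 weeks exceeded 68-week replicates 1 and 3. Within an age the summed level of the pair varied 6.46-fold at 68 weeks and 6.12-fold at 12 weeks between the lowest and highest library. The log2 fold change was 1.62 ± 0.64 (SE) for Hspa1a and 1.62 ± 0.66 for Hspa1b (adjusted p = 0.212 and 0.228, edgeR). Leaving out 68-week replicate 2 gave 1.13 for Hspa1a and leaving out 12-week replicate 2 gave 2.42. The coding sequences of the pair are nearly identical, so the split of reads between them is uncertain, and their sum was 53.9 ± 38.2 CPM at 68 weeks and 17.5 ± 15.5 CPM at 12 weeks (SD, n = 4 each). The adjacent Hspa1l, an Hsp70 of the testis, was at 4.93 to 8.81 CPM at 68 weeks and 4.63 to 5.85 CPM at 12 weeks.

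Among J-proteins, Dnaja1 and Dnajb1, which feed clients to cytosolic Hsp70, had the next largest differences. Dnaja1 (ENSMUSG00000028410, chr4:40722150-40737149) was at 65.4, 119.8, 75.8 and 108 CPM at 68 weeks, against 45.0, 62.2, 48.8 and 60.4 CPM at 12 weeks, so that the ages did not overlap. Its log2 fold change of 0.77 ± 0.19 had the smallest p of the members and missed the threshold (adjusted p = 0.0671, edgeR). It passed with DESeq2 (adjusted p = 0.0204) and without 68-week replicate 1 (log2 fold change 0.91, adjusted p = 0.0393, edgeR), and its adjusted p ran from 0.0177 to 0.608 over all settings tried. Of its exons, 608 bases overlap Smu1 on the other strand, and the sources used here do not say whether counting used strand. Dnajb1, the heat-inducible Hsp40, was at 28.6, 56.7, 31.7 and 39.4 CPM at 68 weeks, against 16.4, 32.7, 19.4 and 26.1 CPM at 12 weeks. Here replicate 2 at 12 weeks again exceeded 2 of the 68-week libraries, and the log2 fold change of 0.73 ± 0.25 had an adjusted p of 0.161 (edgeR).

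Hspa1a, Hspa1b, Dnaja1 and Dnajb1 shared their order of libraries. At each age replicates 2 and 4 were above replicates 1 and 3 for all 4 genes. Replicate 1 at 12 weeks, the lowest 12-week library for all 4, was also the one with the most airway RNA, and the part of airway RNA in this order was not tested.

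**Figure D4:**
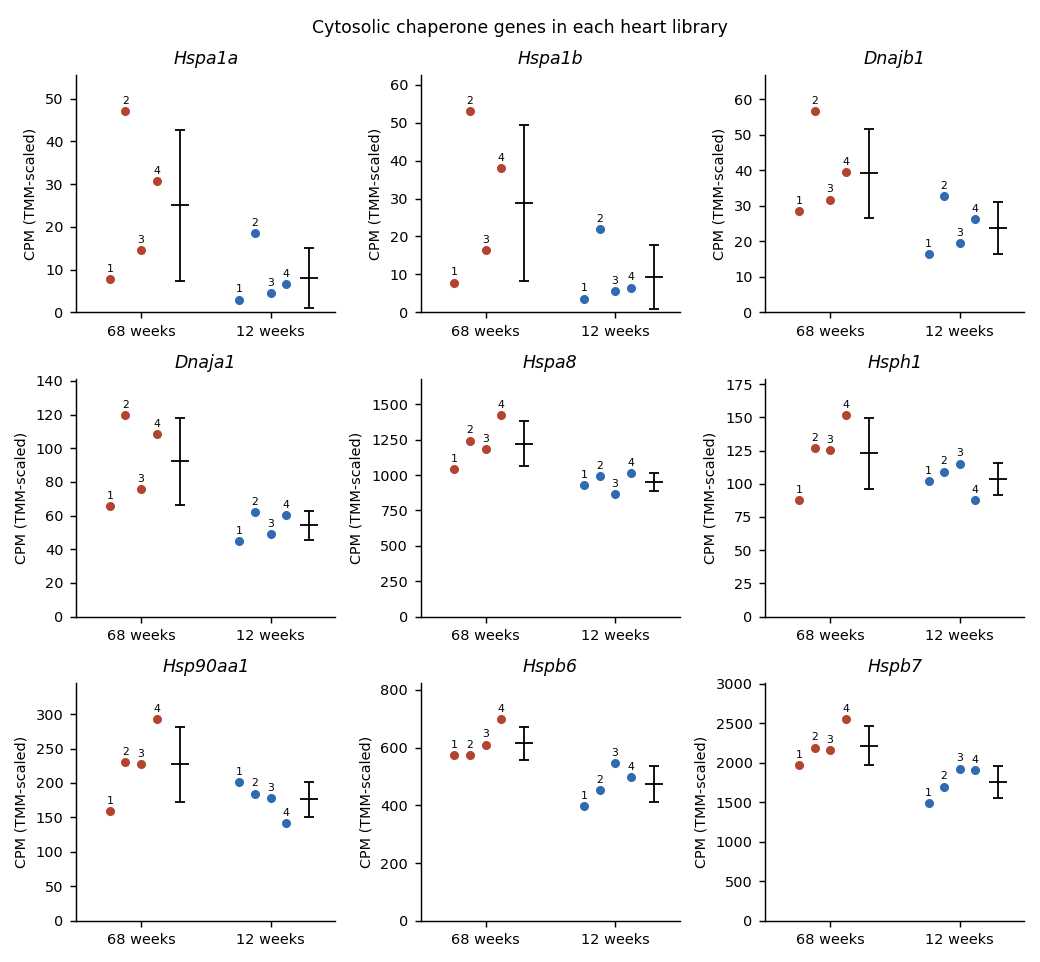
CPM of 9 cytosolic chaperone genes in each library, with 68 weeks left of 12 weeks, replicate numbers beside the points, and bars for the mean ± SD of 4 libraries. For Hspa1a, Hspa1b, Dnajb1 and Dnaja1, replicates 2 and 4 are the upper pair at both ages, and Dnaja1, Hspa8, Hspb6 and Hspb7 do not overlap between ages.

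Constitutive Hsc70, encoded by Hspa8 (ENSMUSG00000015656, chr9:40800984-40810087), was at 1040.2, 1244, 1183 and 1424 CPM at 68 weeks, against 931, 993, 866 and 1013 CPM at 12 weeks. All 4 libraries at 68 weeks were higher. The log2 fold change, 0.36 ± 0.09, had an adjusted p of 0.074 in edgeR and of 0.00361 in DESeq2. Without 68-week replicate 1 it passed in edgeR as well, at 0.43 on the log2 scale and an adjusted p of 0.0447, within a range of 0.00361 to 0.694 over all settings tried. Of the other cytosolic HSP70 genes, Hspa2, which is needed in male meiosis, Hspa12a, Hspa12b and the ribosome-associated Hspa14 had log2 fold changes of 0.03 to 0.10. That of Hspa1l was 0.29 ± 0.17 (adjusted p = 0.396, edgeR).

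Nucleotide exchange factors of the HSP110 type were all on the positive side, with no unadjusted p under 0.05 in edgeR over the 8 libraries. Hsph1, the heat-inducible Hsp110, was at 87.6, 127, 125 and 152 CPM at 68 weeks and at 102, 109, 115 and 87.8 CPM at 12 weeks, so that the lowest libraries of the ages were alike. Its log2 fold change was 0.25 ± 0.15 (adjusted p = 0.404, edgeR). Hspa4 was at 236, 257, 254 and 283 CPM at 68 weeks, against 233, 235, 246 and 222 CPM at 12 weeks (log2 fold change 0.14 ± 0.06, adjusted p = 0.272, edgeR). Hspa4 had an unadjusted p under 0.05 with DESeq2, with RLE size factors, with no filter on low counts, without 68-week replicate 1 and without 12-week replicate 3, and Hsph1 without 68-week replicate 1. Hspa4l had a log2 fold change of 0.05.

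The HSP90 family split by gene. Hsp90aa1, the inducible cytosolic form, was at 159, 229.9, 227 and 293 CPM at 68 weeks, against 202, 185, 178 and 141 CPM at 12 weeks. Replicate 1 at 68 weeks lay inside the 12-week range, and the log2 fold change of 0.36 ± 0.17 did not pass (adjusted p = 0.285, edgeR). Without 68-week replicate 4 it was 0.22, and without 68-week replicate 1 it was 0.50. The constitutive Hsp90ab1 was at 1425, 1579, 1518 and 1580.3 CPM at 68 weeks and at 1331, 1489, 1464 and 1497 CPM at 12 weeks. Its log2 fold change was 0.08 ± 0.06 (adjusted p = 0.502, edgeR). Hsp90b1, the ER form, lay on the negative side and is described with the ER genes.

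All 7 tested small heat shock proteins had positive log2 fold changes, from 0.03 for Hspb11 to 0.38 for Hspb6. Hspb6, the muscle Hsp20 (chr7:30552178-30555443), was at 575, 575, 611 and 699 CPM at 68 weeks, against 399, 452, 546 and 498 CPM at 12 weeks. Hspb7 (chr4:141420779-141425311) was at 1964, 2189, 2156 and 2549 CPM at 68 weeks, against 1486, 1697, 1925 and 1909 CPM at 12 weeks. Neither gene overlapped between ages, and their log2 fold changes of 0.38 ± 0.10 and 0.34 ± 0.10 had adjusted p of 0.0845 and 0.114 in edgeR, and of 0.00575 and 0.0177 in DESeq2. Over all settings tried, the adjusted p reached 0.785 for Hspb6 and 0.813 for Hspb7, with the DESeq2 values the lowest.

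Hspb8, which with Bag3 sends damaged sarcomere proteins to autophagy, was at 363, 431, 397 and 479 CPM at 68 weeks, against 337, 371, 364 and 347 CPM at 12 weeks. Only 68-week replicate 1 lay inside the 12-week range (log2 fold change 0.24 ± 0.08, adjusted p = 0.163, edgeR). Hspb1, the Hsp27 type, was at 197, 226, 254 and 344 CPM at 68 weeks and at 222, 251, 219.5 and 155 CPM at 12 weeks. Its ages overlapped widely, with the extremes in the replicates numbered 4 (log2 fold change 0.27 ± 0.18, adjusted p = 0.462, edgeR). Hspb2 and Hspb3, both of muscle, had log2 fold changes of 0.12 and 0.23. Hspb2 shares 252 exon bases with Cryab, a neighbour on the other strand with 275609 counts over the 8 libraries against 10545 for Hspb2, so its value is uncertain. Of 10 cardiomyocyte markers, 4 (40%) were higher at 68 weeks at an unadjusted p under 0.05, beside 9.26% of all genes tested, and 0 passed the adjusted threshold. The part of cell makeup in the values of these muscle genes was not tested.

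The other cytosolic J-proteins of types A and B were on the positive side by small amounts. Dnaja2 was at 227, 239, 224 and 242 CPM at 68 weeks and at 191, 215, 227 and 208 CPM at 12 weeks. Dnajb5 was at 107, 101, 96.8 and 128 CPM at 68 weeks and at 84.1, 98.7, 95.8 and 87.3 CPM at 12 weeks. Dnajb4 was at 129, 138, 126 and 157 CPM at 68 weeks and at 104, 121, 115 and 133 CPM at 12 weeks. All 3 overlapped between ages in 1 or more libraries, with log2 fold changes of 0.15 ± 0.06, 0.24 ± 0.09 and 0.22 ± 0.09 (adjusted p = 0.224, 0.196 and 0.234, edgeR). Dnaja4 had a log2 fold change of 0.13, Dnajb2, which carries ubiquitin-interacting motifs, 0.08, and Dnajb6 0.05.

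Dnajc7, whose repeats bind both Hsp70 and Hsp90, was at 53.0, 59.5, 55.7 and 58.4 CPM at 68 weeks and at 50.8, 55.3, 52.8 and 50.3 CPM at 12 weeks (log2 fold change 0.12 ± 0.05, adjusted p = 0.267, edgeR). The nuclear and ribosomal DNAJC genes lay on both sides of 0: Dnajc17 at 0.11, Dnajc8, of the spliceosome, at 0.08, Dnajc2, of the ribosome, at 0.04, Dnajc12 and Dnajc24 at 0.02, Dnajc21, of ribosome assembly, at −0.07 and Dnajc9, a histone chaperone, at −0.11. Dnajc9 and Dnajc21 were the 2 cytosolic or nuclear members with a negative log2 fold change.

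Of the 14 ER genes, 9 were on the positive side and 5 on the negative, and the negative ones included the 2 with the highest TPM. Hspa5 (ENSMUSG00000026864, chr2:34771970-34777547) was at 644, 657, 657 and 771 CPM at 68 weeks, against 1102, 833, 598 and 542 CPM at 12 weeks. Hsp90b1 (chr10:86690209-86705509) was at 357, 363, 389 and 417 CPM at 68 weeks, against 621, 458, 393 and 337 CPM at 12 weeks. Thus 12-week replicates 1 and 2, which held 1896 and 1012 CPM of airway markers, were highest for both genes, and the 12-week range enclosed the whole 68-week range. The log2 fold changes were −0.17 ± 0.20 for Hspa5 and −0.25 ± 0.16 for Hsp90b1 (adjusted p = 0.681 and 0.444, edgeR).

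The sign of Hspa5 changed with the libraries used, and without 12-week replicate 1 its log2 fold change was 0.05. Hsp90b1 was negative in all fits but that of the libraries low in airway markers, where replicate 4 is the lone 12-week library. Among the 4 libraries low in airway markers the log2 fold change was 0.35 for Hspa5 and 0.17 for Hsp90b1 (adjusted p = 0.486 and 0.711, edgeR), and among the 4 high ones it was −0.36 and −0.33. Over all settings tried the adjusted p of Hspa5 was 0.373 to 0.988 and that of Hsp90b1 0.205 to 0.984. Replicate 3 at 68 weeks, with 1116 CPM of airway markers, was not the highest 68-week library for either gene. Secretory epithelium has much ER, and its share of the 12-week values was not tested beyond these fits.

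Dnajb11, the J-protein of BiP in the ER lumen, followed the same libraries, with 39.2, 37.5, 40.3 and 44.3 CPM at 68 weeks and 49.4, 45.5, 41.7 and 40.7 CPM at 12 weeks (log2 fold change −0.14 ± 0.07, adjusted p = 0.351, edgeR). Dnajb9, or ERdj4, did not, and was at 42.3, 46.2, 45.9 and 46.2 CPM at 68 weeks and at 44.1, 42.4, 44.9 and 44.5 CPM at 12 weeks (log2 fold change 0.04 ± 0.04, adjusted p = 0.682, edgeR). Dnajc3, an ERdj that also blocks the kinase PERK, had a log2 fold change of 0.01, Dnajc10, a disulfide reductase, −0.05, and the Hsp70 relative Hspa13 0.02. Thus of the 3 members with an ER stress response element, 2 were negative and 1 was near 0.

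**Figure D5:**
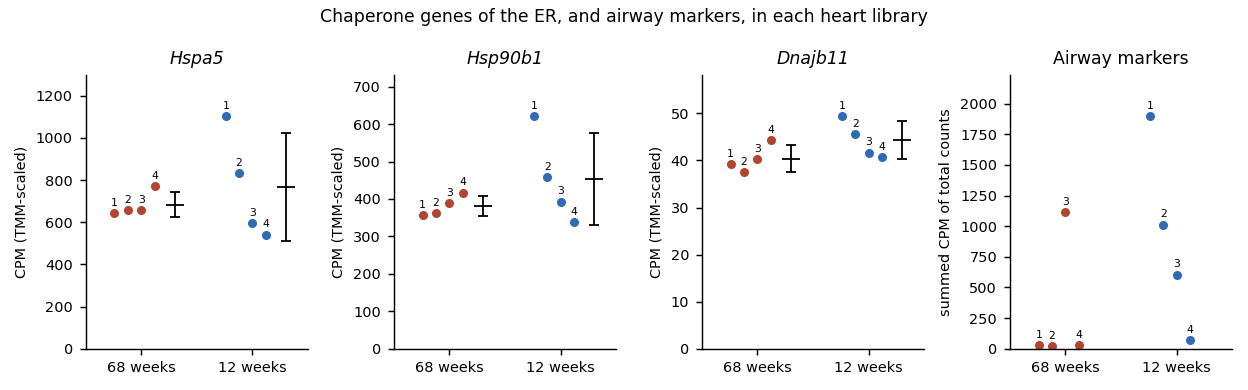
CPM of Hspa5, Hsp90b1 and Dnajb11 and the summed CPM of 25 airway markers in each library, with 68 weeks left of 12 weeks, replicate numbers beside the points, and bars for the mean ± SD of 4 libraries in the first 3 panels. At 12 weeks the 3 chaperone genes are ordered 1, 2, 3, 4 from high to low, as are the airway markers, while at 68 weeks airway-rich replicate 3 does not stand out for the chaperones.

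A few ER J-proteins outside the BiP group differed by small amounts with little spread. Dnajc16 (chr4:141760189-141790931) was at 64.6, 64.5, 64.4 and 64.2 CPM at 68 weeks, against 56.1, 60.4, 58.9 and 56.9 CPM at 12 weeks. The ages did not overlap, and the log2 fold change was 0.15 ± 0.04 (adjusted p = 0.086, edgeR; 0.0327, DESeq2; up to 0.899 over all settings tried). Dnajc25, a membrane J-protein, was at 28.3, 31.6, 28.2 and 28.8 CPM at 68 weeks, against 24.7, 26.0, 26.5 and 26.8 CPM at 12 weeks (log2 fold change 0.17 ± 0.05, adjusted p = 0.118, edgeR). Dnajb14, of the ER membrane, was at 42.4, 38.7, 46.5 and 46.9 CPM at 68 weeks, against 38.5, 37.7, 39.0 and 37.2 CPM at 12 weeks. In Dnajb14 1 library at 68 weeks lay inside the 12-week range (log2 fold change 0.20 ± 0.06, adjusted p = 0.133, edgeR). The remaining ER members, Dnajb12, Dnajc1, Dnajc14 and Dnajc18, had log2 fold changes of at most 0.08 in size.

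Mitochondrial chaperones were close between ages. Hspd1, or Hsp60, was at 431, 430.2, 404 and 455 CPM at 68 weeks and at 398, 429.9, 429 and 453 CPM at 12 weeks (log2 fold change 0.01 ± 0.06, adjusted p = 0.95, edgeR). Hspe1 was at 105, 105, 100.1 and 128 CPM at 68 weeks and at 85.6, 110.2, 118 and 107 CPM at 12 weeks (0.06 ± 0.11, adjusted p = 0.797, edgeR). Hspa9 was at 768, 802, 745 and 801 CPM at 68 weeks and at 723, 788, 767 and 789 CPM at 12 weeks (0.02 ± 0.05, adjusted p = 0.845, edgeR). The differences of all 3 were smaller than their SE, which does not show that the ages are equal.

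Dnajc15 was at 58.9, 59.7, 61.1 and 63.1 CPM at 68 weeks and at 54.7, 62.2, 59.7 and 64.9 CPM at 12 weeks (log2 fold change 0.01 ± 0.06, adjusted p = 0.956, edgeR). The other mitochondrial J-proteins, Dnaja3, Dnajc4, Dnajc11, Dnajc19 and Dnajc30, ran from −0.05 for Dnajc30 to 0.15 for Dnajc11, which is tied to cristae. Dnajc19 is an import motor subunit whose loss causes cardiomyopathy in humans, and its log2 fold change was −0.02 ± 0.08. Replicate 1 at 12 weeks was the lowest library for 8 of the 9 mitochondrial members, and it also had the smallest mitochondrial share of counts, 7.41%. Hspd1 and Hspe1 overlap by 112 exon bases on opposite strands, which leaves the split of those reads uncertain.

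Few members belonged elsewhere. Dnajc27, a Rab-like GTPase with a J domain, was at 22.1, 22.5, 25.8 and 27.5 CPM at 68 weeks and at 20.7, 18.9, 22.7 and 19.3 CPM at 12 weeks (log2 fold change 0.27 ± 0.09, adjusted p = 0.139, edgeR). Dnajc13, of endosomes, and Dnajc5, the cysteine string protein of secretory vesicles, each had a log2 fold change of 0.08, and for Dnajc13 the ages did not overlap. Dnajc28 was at −0.06 and Dnajc6, or auxilin, which uncoats clathrin vesicles, at −0.07 ± 0.30 with under 1 CPM in all 8 libraries.

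Of the cilium members, Dnajb13, a radial spoke protein of motile cilia, had the most negative log2 fold change of the 65. It was at 0.53, 0.937, 0.773 and 0.803 CPM at 68 weeks, against 1.15, 0.826, 1.25 and 0.686 CPM at 12 weeks (−0.36 ± 0.26, adjusted p = 0.489, edgeR). The ages overlapped, and the value rests on 203 counts over 8 libraries, beside 25296 of Ucp2, with which it shares 305 exon bases on the other strand. Summed markers of ciliated airway cells were 18.2 to 90.2 CPM at 68 weeks and 38.3 to 146 CPM at 12 weeks, and their part in this value was not tested. Hspb11, or Ift25, was at 2.74 ± 0.153 CPM at 68 weeks and 2.68 ± 0.518 CPM at 12 weeks (SD, n = 4 each).

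Not tested were Hspb9, Dnajb3, Dnajb7, Dnajb8, Dnajc5b, Dnajc5g and Dnajc22, each with 0 to 12 counts per library, several of them known from testis. Dnajb7 had 6, 3, 5 and 8 counts at 68 weeks, against 2, 3, 2 and 1 counts at 12 weeks, and was higher at an unadjusted p under 0.05 when no filter on low counts was applied. For the other 6 no difference at such a p was detectable at this depth in that fit.

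Read beside the promoters, the 15 tested members with a 2-unit heat shock element had a median log2 fold change of 0.24, 7 with an unadjusted p under 0.05, and the 38 matched members without it had 0.05, also 7. The 7 with the element were Hspa1a, Hspa1b, Dnaja1, Dnajb4, Dnajc27, Hspb6 and Hspb8. Hspa1a and Hspa1b, with nearly identical promoters and an uncertain split of reads, are counted separately here, as are Hspd1 and Hspe1. The 4 members with the 3-unit form had a median of 0.05, and 0 of them had an unadjusted p under 0.05. Over all tested genes in the table, 10.4% of the 1603 with the 2-unit element were higher at an unadjusted p under 0.05, beside 9.54% of the 9853 without it. For the 66 with the 3-unit form the share was 16.7% higher and 1.52% lower, beside 9.62% and 9.94% of those without. The 17 tested genes with an ER stress response element, which include the members Hspa5, Hsp90b1 and Dnajc3, had a median of −0.17. The 11439 without it had −0.006. At an unadjusted p under 0.05, 0% of the 17 were higher and 11.8% lower, beside 9.68% and 9.89% of those without. Hspa5 itself was at −0.17.

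Regulators and partners from other gene lists were read the same way. Of 5 tested heat shock factors and their regulators, 0 had an unadjusted p under 0.05, and Hsf1 itself was at 31.4 ± 3.08 CPM at 68 weeks and 32.7 ± 1.51 CPM at 12 weeks (SD, n = 4 each). Of 14 Hsp70 cofactors, 2 (14.3%) were higher and 0 lower at an unadjusted p under 0.05, beside 9.26% and 9.77% of all genes tested. Bag3, the exchange factor that binds Hspb8, was at 261, 322, 295 and 309 CPM at 68 weeks, against 222, 243, 252 and 245 CPM at 12 weeks. The ages did not overlap, and the log2 fold change of 0.30 ± 0.07 missed the threshold (adjusted p = 0.0583, edgeR; 0.00211, DESeq2; up to 0.705 over all settings tried). The other was Stub1, or CHIP, the ubiquitin ligase that takes Hsp70 clients to degradation, at 0.11.

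Of 19 Hsp90 co-chaperones, 3 (15.8%) were higher and 1 lower at an unadjusted p under 0.05, beside 9.26% and 9.77% of all genes tested. Fkbp5, an immunophilin induced by glucocorticoids, was at 29.8, 29.4, 27.6 and 31.8 CPM at 68 weeks, against 16.6, 21.4, 25.2 and 24.8 CPM at 12 weeks, without overlap (log2 fold change 0.43 ± 0.12, adjusted p = 0.0874, edgeR). Stip1, or Hop, which hands clients from Hsp70 to Hsp90, had 0.23, Itgb1bp2, or melusin, of striated muscle, 0.16, and Tomm34 −0.18. The median of the 19 was 0.0006, with 10 positive and 9 negative. All 4 libraries at 68 weeks were higher than all 4 at 12 weeks for 1 of the 19 and lower for 2. Of 14 tested subunits of the TRiC and prefoldin complexes, which fold actin and tubulin, 1 was higher at such a p (Cct6a, 0.16). That is 7.14%, beside 9.26% of all genes tested. Of 8 tested chaperones outside the name rule, 2 (25%) were higher and 1 lower at an unadjusted p under 0.05, beside 9.26% and 9.77% of all genes tested. Cryab, the abundant αB-crystallin, had 0.22 ± 0.08 and the auxilin relative Gak had −0.17. With the adjusted threshold 0 of the 8 were called, beside 1.61% of all genes higher and 1.22% lower.

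Of 18 ER stress genes, 1 passed the adjusted threshold, beside 1.61% of all genes tested that were higher and 1.22% that were lower. Ddit3, which encodes CHOP, rose at 68 weeks to 16.1, 13.1, 14.0 and 15.5 CPM, against 10.4, 11.2, 12.1 and 11.7 CPM at 12 weeks (log2 fold change 0.37 ± 0.08, adjusted p = 0.0468, edgeR). Edem1, of ER-associated degradation, lay lower at −0.29 ± 0.07 (adjusted p = 0.0547, edgeR), and Atf6 was at 0.17. The median of the 18 was −0.03. Of 10 genes of mitochondrial protein quality control, 1 had an unadjusted p under 0.05, beside 9.77% of all genes tested that were lower. It was the protease subunit Clpx at −0.30 ± 0.08 (adjusted p = 0.0702, edgeR).

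Heat shock genes are also known to follow time of day and acute stress, so clock, immediate early and cold-induced genes were read beside the members. Of 16 clock genes, 3 rose at 68 weeks and 1 fell (adjusted p under 0.05, edgeR), beside 1.61% and 1.22% of all genes tested. Per2 rose to 30.5 ± 5.63 CPM at 68 weeks, against 14.6 ± 1.63 CPM at 12 weeks, and Arntl fell to 3.10 ± 0.921 CPM at 68 weeks, against 6.81 ± 0.825 CPM at 12 weeks (SD, n = 4 each; adjusted p = 0.00509 and 0.0177, edgeR). The others that rose were Ciart at 1.06 and Cry1 at 0.51. Of 20 immediate early genes, 3 rose, Jun at 0.60, Nr4a1 at 0.79 and Ier3 at 0.63, and 0 fell. The cold-induced Cirbp was at −0.27 ± 0.11 (adjusted p = 0.205, edgeR) and Rbm3 at 0.06 on the log2 scale. Over all settings tried, the called clock and immediate early genes and Ddit3 lost the threshold in 66 results for single genes. The part of sampling time and handling in the chaperone values was not tested, because the labels give neither.

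At each age 1 member was linked to H3K27me3, a share near that of all genes. The authors' deposited lists hold regions they name as unique to 1 age, with their own link to a gene and their own score. In the 68-week list the 1 linked member was Dnajc6 (1.39% of the 72, beside 2.4% of all genes), with a region of 338 bases at chr4:101356086-101356423 and an authors' score of 4.07. In the 12-week list it was Dnajb8 (1.39%, beside 1.06% of all genes), with a region of 214 bases at chr6:88205520-88205733 and a score of 4.75. The build of these coordinates was not established, and as printed neither region falls within the span of its linked gene in the count table, so the link does not place the mark at the gene. The lists carry no value per library and hence no error. Both genes were at or under 1 CPM in all 8 RNA libraries. None of the 15 members with an unadjusted p under 0.05 was linked to a region at either age. With 2.4% and 1.06% of all genes linked, this says little about the 15.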

How the data were processed

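RNA was measured in 4 heart libraries at 68 weeks and 4 at 12 weeks. The RNA values are whole-number counts of reads per gene, deposited by the authors without normalization, per the file headers and the values, and the per-library files were identical to the series table. The submitters' processing notes name mm10 and, without roles, Trimmomatic 0.36, STAR 2.5.2b, featureCounts, Subread 1.5.2 and DESeq2. The use of strand and of reads with several matches is not given in the sources used here, and this can shift values of near-identical or overlapping genes. The H3K27me3 lists hold a score per region that the authors call enrichment, with no stated scale.

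The age test on the counts used edgeR 4.0.16 (R 4.3.3, filterByExpr, TMM, glmQLFit and glmQLFTest, Benjamini-Hochberg over 15947 genes, adjusted p of 0.05), with age as the model. SE values are approximate: |log2 fold change| / √F. CPM uses TMM-scaled library sizes, except for summed marker lists (total counts). TPM was computed from the counts and the gene lengths in the per-library files. Library totals were 23599296 to 34599121 counts, the common biological coefficient of variation was 0.139, and replicate pairs differed by a chi-square of at least 15.7 per degree of freedom, above sampling noise. DESeq2 1.42.0 and the settings listed in the closing section were alternatives, and the test was tried on simulated counts.

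Members and lists were chosen with earlier results of these data known. Values per library are given for the 16 members with the smallest p, the highest of each family and a fixed set of 17, 29 genes in all, and from each other list for called genes and up to 3 with the smallest p. The remaining members and a few genes beside them are named with fewer values.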

Additional observations from a re-analysis of the deposited data

Results flagged for a closer look

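Over 29 named genes at 2 ages, 58 groups of 4 libraries were examined for a library far from the other 3, and 4 were found. Chance alone marks about 1 group in 20 where values follow a normal distribution. The gap was taken on CPM and not on log2 CPM, and skewed values are marked at another rate. Hspa1b in 12-week replicate 2 stood at 21.9 CPM, with the nearest library at 6.53 CPM and the lowest at 3.62 CPM, a gap of 0.841 of the range. The same library was the highest of its age for Hspa1a, Dnajb1 and Dnaja1. Hspa5 in 68-week replicate 4 stood at 771 CPM, above the next at 657 CPM and the lowest at 644 CPM (0.895 of the range). Dnajb9 in 68-week replicate 1 was low, at 42.3 CPM, under the next at 45.9 CPM and the highest at 46.2 CPM (0.918). Dnajc25 in 68-week replicate 2 was high, at 31.6 CPM, above 28.8 and 28.2 CPM (0.835). The last 2 gaps are a few CPM wide. What set these libraries apart was not tested.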

How the results depend on the processing

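The count of members called higher, 0 in edgeR, was 3 with no filter on low counts (beside 1.05% of all genes) and 5 with DESeq2. It was 0 to 2 when 1 library was left out (2 without 68-week replicate 1, beside 1.05% of all genes). In these fits 0 were called lower. Replicate numbers did not pair the libraries (correlations of same-numbered libraries −0.24, −0.04, 0.04 and 0.33). The fit with the replicate block gave 4 called members (Dnaja1, Dnajb1, Hspa1a and Hspa1b), beside 0.702% of all genes called higher. It gave 14 higher at an unadjusted p under 0.05, beside 7.82% of all genes. For these 4 called genes replicates 2 and 4 were above replicates 1 and 3 at both ages, an order that such a block takes up.

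The count at an unadjusted p under 0.05, higher, was 15. It was 17 with RLE size factors (15 of them shared), 10 with library size alone (10 shared), 7 with airway markers in the model (6 shared), 3 and 5 within the libraries low and high in airway markers (0 and 4 shared), 10 to 22 with 1 library left out, and 6 without 68-week replicate 4 and 12-week replicate 1 (6 shared). In all 8 fits that left out 1 library, 9 of the 15 kept this p. Members lower at such a p numbered 1 with library size alone and 0 to 2 with 1 library left out, the 2 being Dnajb11 and Hsp90b1 without 12-week replicate 4. With library size alone, 5.12% of all genes were higher and 14.9% lower at this p. Of all genes, 9.64% were higher with RLE size factors and 7.34% to 8.88% with 1 library left out.

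With library size alone, medians were 0.0199 for all members, 0.0044 for DNAJB, −0.0409 for DNAJC, −0.0402 for the ER, −0.0347 for mitochondria, −0.0205 for the chaperonins and 0.0190 for HSP70. The chaperonin median was also negative with airway markers in the model (−0.0518) and in the libraries high in them (−0.0546), as was that of mitochondria (−0.0302 and −0.0262). The ER median was 0.0387 with airway markers in the model and 0.0649 in the libraries high in them, where DNAJC was 0.0564. HSP70 was 0.159 in the libraries low in airway markers. Over the fits that left out libraries, DNAJC ran from 0.00589 to 0.0662, the ER from 0.00718 to 0.0391, mitochondria from −0.0523 (without 68-week replicate 4 and 12-week replicate 1) to 0.0471, and the chaperonins from −0.0808 (without the same pair) to 0.0733.

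Log2 fold changes near 0 changed sign. With library size alone Hspd1 was −0.0480, Dnajb9 −0.0196, Dnajc15 −0.0483 and Hspa9 −0.0347. With airway markers in the model Hspd1 was −0.0667, Hspa9 −0.0288, Dnajc15 −0.0302, Hspe1 −0.0369, Hsf4 −0.0170 and Hspa5 0.0680. In the libraries low in them Dnajc15 was −0.0979, Hspa5 0.352, Hsp90b1 0.170, Dnajb13 0.140, Hsbp1 −0.0299, Hspd1 −0.0432, Hsf1 0.00567 and Hsf4 −0.108, and in those high in them Hspd1 was −0.0498, Hspa9 −0.0262 and Hspe1 −0.0594. Over the fits that left out libraries, Hspd1 ran from −0.0523 to 0.0409, Dnajc15 from −0.0559 to 0.0460, Hspe1 from −0.109 to 0.121, Hspa9 from −0.0179 to 0.0471, Hsf4 from −0.00735 to 0.153 and Hspa5 from −0.307 to 0.0548, the last without 12-week replicate 1. Beside 34 changes of sign, all within these values and ranges, 939 results for single genes kept direction and side, 66 lost the threshold and 22 gained it. Only genes called in the main fit could lose it: Ddit3, Per2, Arntl, Ciart, Cry1, Jun, Nr4a1 and Ier3, and no member. The 66 losses thus all fell on these genes, whose calls often changed with the setting. The cause was not tested. The low and high airway fits leave 1 library in 1 age, which is taken to vary like the others.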
